A study of Mus musculus with 2 samples.

Results

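The genes described here are Vgll2, Vgll3, Vgll4, Tead1, Tead2, Tead3, Tead4, Yap1, Wwtr1 and Amot, which encode the transcription factors at the nuclear end of the Hippo pathway and proteins that bind or restrain them. They were taken by symbol, and all 10 were found among the 31053 genes listed for E9.5 and the 27998 listed for E12.0. TEAD proteins bind DNA but activate little by themselves. They depend on partners, chiefly YAP1 and its relative TAZ, which is encoded by Wwtr1. When cells are crowded or relaxed, the kinases LATS1 and LATS2 phosphorylate both partners and hold them in the cytoplasm, and angiomotin (Amot) at cell junctions also binds YAP1. Vestigial-like (VGLL) proteins use the same face of TEAD as YAP1 does. VGLL2 and VGLL3 are best known from muscle and act as TEAD cofactors, while VGLL4 competes with YAP1 and represses its targets.

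The study profiled mouse mandibular cells by 10x Genomics 3' single-cell RNA sequencing at E9.5 and E12.0, to follow how the epithelium of the lower jaw divides into regions. Both libraries came from K14Cre;R26mT/mG embryos with no treatment, in which Cre under the Keratin 14 promoter switches a membrane reporter from tomato to GFP in epithelium. The E12.0 library pooled peeled epithelium of 6 embryos of 1 litter and was sorted for GFP, so cells that had not recombined were lost. The E9.5 library pooled whole arches of 8 embryos of 1 litter, unsorted, with mesenchyme, mesoderm, endoderm and blood vessels included.

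After removal of cells with fewer than 200 or more than 5500 detected genes or more than 10% mitochondrial counts, 12744 of 14293 barcodes remained at E9.5 and 11355 of 11663 at E12.0. Kept cells held 500 to 40102 unique molecules (UMIs) at E9.5, with a median of 13460.5, and 503 to 21712 at E12.0, with a median of 6349. There was 1 library per stage, so no replicate error exists and no test between conditions was possible. Levels are UMIs summed over a group of cells and given as CPM, counts scaled to the same total in every group, with exact 95% Poisson intervals, which cover counting error only, and stage and library cannot be told apart. The libraries shared 51 barcode sequences, 44 of them among kept cells.

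At E9.5, cells were assigned by marker UMIs to epithelium (2731 cells), endoderm (345), mesenchyme (5212), mesoderm (537) and endothelium (256), and 3663 cells met no definition. Marker genes not used for this assignment differed by tissue, though not cleanly. Mesenchyme check genes summed to 543 CPM in mesenchyme and 262 CPM in mesoderm, whose definition did not exclude Prrx1 or Twist1. Mesoderm check genes summed to 585 CPM in mesoderm and 54.1 CPM in mesenchyme. The 7 epithelial check genes summed to 1564 CPM in epithelium and 1968 in endoderm, against 82.5 in mesenchyme, 64.5 in mesoderm and 41.6 in endothelium. The endoderm check genes were weaker, at 95.9 CPM in endoderm, 39.7 in epithelium and 202 in endothelium, so the endoderm group rests on its defining genes Foxa2, Foxa1, Pax1 and Shh. Blood genes, which none of these cells should make, stood at 130 to 1244 CPM across the 5 groups. At E12.0 the same epithelial check genes summed to 718 CPM and the endothelial and blood genes to 8.69 and 0.898 CPM.

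TEAD proteins recognise the hexamer GGAATG, written CATTCC on the opposite strand, and both forms were looked for in the promoters of the members. RefSeq promoters (GRCm38.p6, 250 bases before to 50 bases after the start) were available for 8 of the 10 genes, and those of Tead1 and Tead4 were not used here. The hexamer was present on either strand in 7 of 11 promoters of these genes, against 14.7% of 32851 promoters of the genome. By gene it was present in 5 of 8, against 16.6% of 27025 genes. Some of the 11 promoters overlap, and those of Wwtr1 share the same match. The windows of 50 bases around the first match in 1 promoter per gene, with the hexamer in capitals, are shown because they hold the letters that these promoters share. For Tead3 the second promoter is shown, which held 3 matches, not all within the window. Its first promoter held a match 182 bases before the start that is not shown. A match is a description of sequence and not a site of binding.

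Yap1 (chr9:8004710-8004759, minus strand, match beginning 141 bases before the start): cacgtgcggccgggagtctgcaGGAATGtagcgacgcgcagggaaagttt

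Wwtr1 (chr3:57576019-57576068, minus strand, 136 bases before the first start): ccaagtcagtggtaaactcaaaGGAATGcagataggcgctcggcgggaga

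Vgll3 (chr16:65815104-65815153, plus strand, 63 bases before the start): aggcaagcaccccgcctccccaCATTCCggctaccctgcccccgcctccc

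Vgll4 (chr6:114969258-114969307, minus strand, 82 bases before the start): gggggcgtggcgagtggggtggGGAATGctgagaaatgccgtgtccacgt

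Tead3 (chr17:28350696-28350745, minus strand, 123 bases before the second of its 3 listed starts): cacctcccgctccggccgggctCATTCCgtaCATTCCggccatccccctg

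The promoters of Vgll2, Tead2 and Amot held neither form in these windows, which says nothing of sites elsewhere. The 1 Amot promoter used (chrX:145487590-145487889, minus strand) lies inside the span of the gene (chrX:145446425-145505181). The outer end of Amot was therefore not looked at. The 250 bases before the start of Vgll2, the gene that differed most between tissues and stages, are given for that reason and carry no marked letters.

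Vgll2 (chr10:52022252-52022501, plus strand): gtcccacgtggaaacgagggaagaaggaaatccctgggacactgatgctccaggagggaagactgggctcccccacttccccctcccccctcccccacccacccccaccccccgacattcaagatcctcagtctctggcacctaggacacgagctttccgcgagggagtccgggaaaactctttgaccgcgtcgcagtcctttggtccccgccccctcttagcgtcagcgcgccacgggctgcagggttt

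Vgll2 (chr10:52022502-52028471, plus strand, GRCm38) marked the lining tissues of the E9.5 arch. Its level was 221 CPM (95% interval 216 to 226) in epithelium and 237 CPM (223 to 251) in endoderm. It was 6.005 CPM (5.46 to 6.58) in mesenchyme, 5.41 CPM (3.87 to 7.37) in mesoderm and 4.71 CPM (2.79 to 7.44) in endothelium. The last 3 intervals overlapped, and the first 2 differed by a log2 ratio of 0.10 (0.01 to 0.19). A Vgll2 UMI was seen in 45.1% of epithelial and 54.8% of endodermal cells, against 7.89% of mesenchymal, 7.45% of mesodermal and 6.64% of endothelial cells. With every cell thinned to 3100 UMIs the shares were 28.8%, 36.7%, 1.70%, 2.24% and 1.98%. Median depths were 11703, 13423, 15195, 12735 and 14196.5 UMIs per cell in the same order, so epithelium was the shallowest of the 5 groups and mesenchyme the deepest.

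The low level outside the linings was set beside that of other epithelial genes. Vgll2 in mesenchyme was 2.72% of its epithelial level, and 7 epithelial genes (Cdh1, Cldn6, Cldn7, Krt8, Krt18, Esrp1 and Perp) lay between 2.36% for Cldn7 and 7.20% for Krt8. In endothelium, a lineage apart from epithelium, Vgll2 stood at 2.13% and these genes at 2.48% to 4.03%. In mesoderm all 40 Vgll2 UMIs came from 40 different cells. At this level Vgll2 in mesenchyme, mesoderm and endothelium could not be told apart from a background of epithelial transcripts, which was not measured. The source of these UMIs was not tested.

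**Figure D1:**
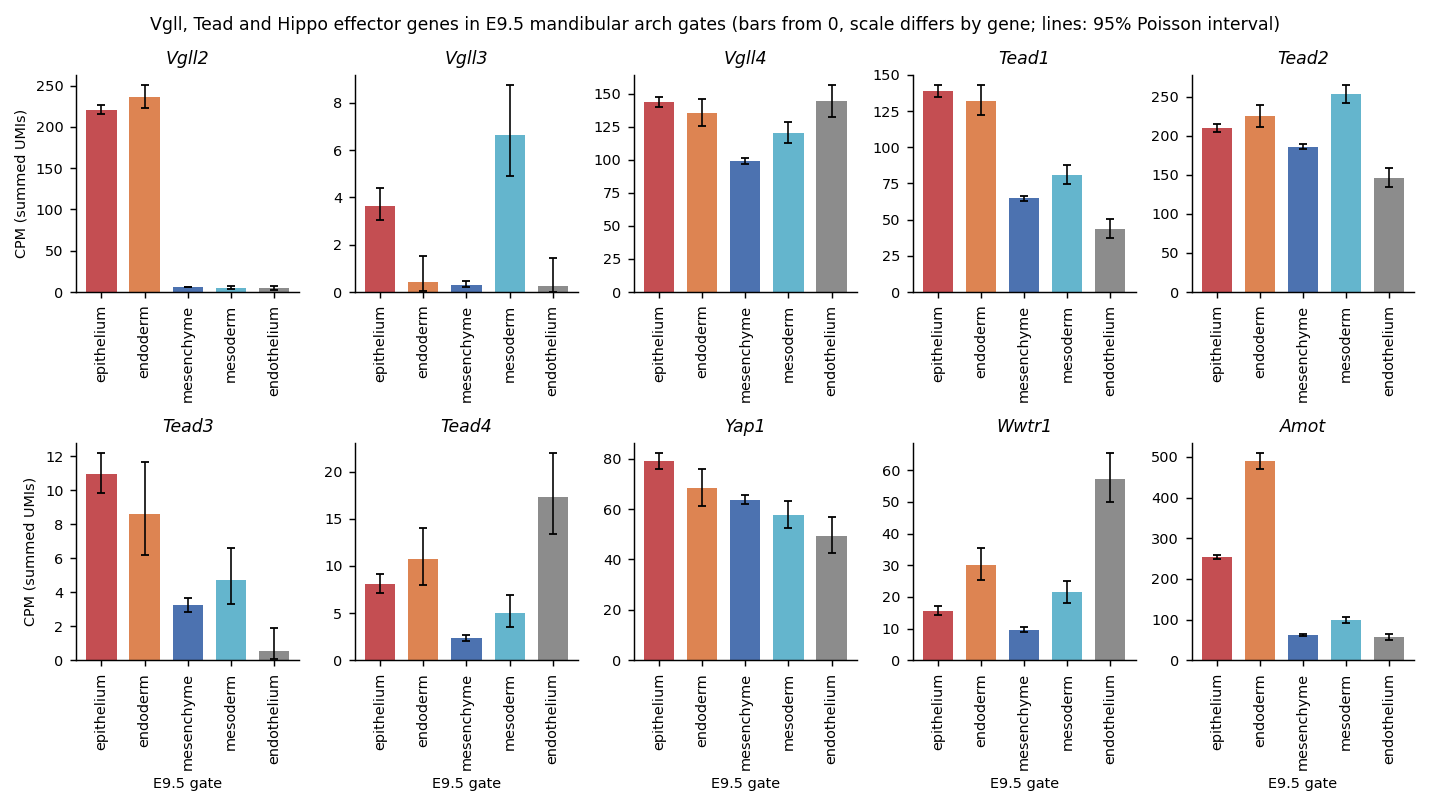
Levels of the 10 genes in 5 groups of E9.5 cells, as CPM of summed UMIs (vertical axis from 0, scale set for each gene) with 95% Poisson intervals as lines. Vgll2 stands at 221 and 237 CPM in epithelium and endoderm and near 5 CPM elsewhere, Amot is highest in endoderm at 489 CPM, and Wwtr1 and Tead4 are highest in endothelium.

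Within the linings Vgll2 was uneven. Endodermal cells with a Pax1 UMI, a marker of pharyngeal pouches, held 284 CPM (265 to 303) and those without held 152 CPM (134 to 171). The thinned joint detection of Vgll2 and Pax1 in endoderm, relative to the product of their separate shares, did not show this, at 0.895 (0.624 to 1.23). Epithelial cells with a UMI of Tfap2b, a transcription factor of aboral surface ectoderm, held 123 CPM (111 to 137) and those without held 231 CPM (225 to 236). Epithelial cells with a UMI of Sfn, an early periderm gene, held 176 CPM and those without 242 CPM. Tfap2b-positive cells also held less Amot, at 149 against 264 CPM. These divisions were chosen after the values were known.

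Vgll3 (chr16:65815257-65866368, plus strand) had another distribution at a far lower level. It was 6.63 CPM (4.90 to 8.76) in mesoderm and 3.66 CPM (3.03 to 4.38) in epithelium, from 49 and 118 UMIs. Mesenchyme was at 0.317 CPM (0.203 to 0.472), endoderm at 0.419 CPM from 2 UMIs and endothelium at 0.262 CPM from 1 UMI. The mesoderm and epithelium intervals did not overlap each other or that of mesenchyme. Within mesenchyme, cells with a UMI of Hand2, a factor of the distal arch, held 1.13 CPM (0.633 to 1.87) and the others 0.144 CPM (0.0660 to 0.274). Hand2-positive mesenchyme also held more Amot, at 92.7 against 54.8 CPM, and more Wwtr1, at 15.6 against 8.39 CPM.

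Vgll4 (chr6:114860628-114969994, minus strand) was expressed throughout. It ranged from 99.0 CPM in mesenchyme to 144 CPM in both epithelium and endothelium, with 135 CPM in endoderm and 120 CPM in mesoderm. Its share of cells with a UMI was 67.9% to 84.0% across the 5 groups. Vgll4 thus had no group in which it was scarce, unlike Vgll2 and Vgll3.

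Among the TEAD genes, Tead2 was the most even and Tead1 leaned to the linings. Tead2 was highest in mesoderm at 254 CPM (242 to 265), followed by endoderm at 225 CPM, epithelium at 210 CPM, mesenchyme at 186 CPM and endothelium at 146 CPM (134 to 159). Neighbouring intervals overlapped between endoderm and epithelium only. Tead1 was 139 CPM (135 to 143) in epithelium, 132 CPM (122 to 143) in endoderm, 81.0 CPM in mesoderm, 64.7 CPM (62.9 to 66.5) in mesenchyme and 43.4 CPM in endothelium.

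Tead3 and Tead4 were scarce. Tead3 was 10.98 CPM in epithelium, 8.59 CPM in endoderm, 4.73 CPM in mesoderm and 3.23 CPM in mesenchyme, and the endothelial cells gave 2 UMIs. Tead4 was highest in endothelium at 17.3 CPM (13.4 to 21.96), then endoderm at 10.7 CPM (7.95 to 14.0), epithelium at 8.12 CPM, mesoderm at 5.01 CPM and mesenchyme at 2.33 CPM (2.00 to 2.70). For Tead4 only endoderm overlapped its neighbours on both sides, and the mesenchyme interval lay below all others.

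Counted as a share of all Tead UMIs, Tead2 made up 57.1% (56.2 to 58.0, exact binomial interval) in epithelium, 59.8% in endoderm, 72.6% in mesenchyme, 73.6% in mesoderm and 70.5% in endothelium. Tead1 made up 37.7% in epithelium and 25.3% in mesenchyme. The summed level of the 4 genes was 368 CPM in epithelium, 376 in endoderm, 344 in mesoderm, 256 in mesenchyme and 207 in endothelium. UMIs count molecules at the 3' end, so transcript length does not enter these shares, but the efficiency of capture may differ between genes.

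The coactivator Yap1 varied little and its relative Wwtr1 varied more. Yap1 was 79.1 CPM (76.1 to 82.2) in epithelium, 68.3 CPM in endoderm, 63.6 CPM in mesenchyme, 57.6 CPM in mesoderm and 49.2 CPM (42.4 to 56.7) in endothelium, and the interval of each group overlapped that of the next in this order. Wwtr1 was 57.3 CPM (49.9 to 65.4) in endothelium, 29.9 CPM (25.2 to 35.3) in endoderm, 21.4 CPM (18.2 to 24.98) in mesoderm, 15.5 CPM (14.2 to 17.0) in epithelium and 9.66 CPM (8.97 to 10.4) in mesenchyme. No 2 of these Wwtr1 intervals overlapped.

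Amot (chrX:145446425-145505181, minus strand), which encodes the junctional YAP1-binding protein, was highest in the linings as Vgll2 was. It was 489 CPM (470 to 510) in endoderm, 254 CPM (248 to 259) in epithelium, 98.9 CPM (91.9 to 106) in mesoderm, 61.5 CPM (59.7 to 63.3) in mesenchyme and 57.0 CPM (49.7 to 65.1) in endothelium. The endodermal level was carried by cells without a Pax1 UMI, at 923 CPM (878 to 970), while cells with a Pax1 UMI held 248 CPM (231 to 266). The order of these endodermal cells was thus opposite for Amot and Vgll2.

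To compare groups, a gene was called different where its CPM differed at least 2-fold with 5 CPM added to both values, among genes seen in 5% or more of the cells on either side. Between epithelium and mesenchyme, 3 of the 9 genes tested, Vgll2, Tead1 and Amot, were higher in epithelium, where 7.12% of all 10147 genes tested were called higher, and none was lower, where 2.06% were. In either direction 9.18% of all genes were called. The log2 ratios of the 3 genes without added counts were 5.20 (5.06 to 5.34) for Vgll2, 1.10 (1.04 to 1.16) for Tead1 and 2.05 (1.99 to 2.10) for Amot. The median log2 ratio with 5 CPM added was 0.84 over the 9 genes and 0.10 over all genes tested. The Tead1 call was marginal, at 1.05 with 5 CPM added, and fell to 0.96 in cells with a Xist UMI and none of 4 Y-linked genes.

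Between endoderm and epithelium 0 of 9 genes were called, where 1.04% of all 10215 genes were called in either direction. Amot and Wwtr1 came closest, each with a log2 ratio of 0.95 (0.88 to 1.01 for Amot and 0.67 to 1.22 for Wwtr1). Between mesoderm and mesenchyme 1 of 10 genes, Vgll3, was called higher, against 3.97% of all 10073 genes called higher and 5.18% called in either direction. Its log2 ratio was 4.38 (3.65 to 5.15), and 1.13 with 5 CPM added. The call was lost in cells with a Xist UMI and none of 4 Y-linked genes, where the latter value was 0.92, and in thinned cells, where it was 1.36 but a Vgll3 UMI was seen in 2.61% of mesodermal cells, under the 5% needed for a gene to be tested. Wwtr1 was also more abundant in mesoderm, at a log2 ratio of 1.15 (0.89 to 1.40), but at 0.85 with 5 CPM added it was not called.

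Of the 25 other genes of the pathway, few were called at E9.5, and few of all genes were. Between epithelium and mesenchyme 7.12% of all genes were called higher in epithelium. Among the 14 kinases and adaptors 1 was, Wwc1, which encodes the LATS activator KIBRA, at 51.9 against 8.95 CPM. Among 9 tested junction genes 1 was, Dlg5, a scaffold protein, at 36.9 against 11.8 CPM. Fat4, an atypical cadherin, was the 1 of 10 tested junction genes higher in mesoderm than mesenchyme, at 10.3 against 1.24 CPM. There 3.97% of all genes were called higher. Between endoderm and epithelium none of the 14 kinases and adaptors and none of 8 tested junction genes was called, where 1.04% of all genes were. Vgll1 was in neither stage detected in enough cells to be tested.

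Among 17 genes listed as YAP targets, 3 of 12 tested were higher in E9.5 epithelium than mesenchyme, against 7.12% of all genes. These were Tgfb2, a ligand, at 36.8 against 14.3 CPM, Nuak2, a kinase, at 10.5 against 0.727 CPM, and Crim1, a membrane protein, at 20.5 against 6.18 CPM. The canonical targets Ccn1 and Ccn2 were not: Ccn1 was 27.97 CPM in epithelium and 30.4 CPM in mesenchyme, and Ccn2 was 6.91 and 5.55 CPM. Tgfb2 was also called between endoderm (81.2 CPM) and epithelium and between mesoderm (49.2 CPM) and mesenchyme.

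Vgll2 was next set against genes that pattern the oral ectoderm, within the 4816 E9.5 cells with at least 1 Epcam UMI. Epcam is an epithelial adhesion protein, but these cells also included many that carried mesenchymal transcripts, so values were repeated in the epithelium group. This could not be done for Pax1 and Foxa2, whose UMIs exclude a cell from that group. Fgf8, the ligand of the lateral oral ectoderm, went with Vgll2. After thinning, 38.5% of cells with a Vgll2 UMI also held an Fgf8 UMI, against 9.96% of cells without. The share of cells with both was 2.24 times (2.05 to 2.44) the product of the separate shares, and 1.99 times (1.80 to 2.20) in the epithelium group.

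Sox2, a factor of oral progenitors, followed less closely. It was found in 32.4% of Vgll2-positive and 16.9% of Vgll2-negative cells after thinning, a joint ratio of 1.56 (1.41 to 1.71), and 1.38 (1.21 to 1.55) in the epithelium group. In endoderm, where 42.6% of thinned cells held Sox2, the ratio was 1.195 (0.926 to 1.51). There 50.9% of Vgll2-positive and 38.4% of Vgll2-negative cells held Sox2. Without thinning the ratio in Epcam-positive cells was 1.43 (1.36 to 1.498) for Sox2 and 1.84 (1.75 to 1.93) for Fgf8. Each interval is that of the joint share, with the separate shares held fixed. It counts cells of 1 library and carries no replicate error. An interval that includes 1 therefore does not exclude an association.

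Other patterning genes fell on both sides. Pax1 had a joint ratio of 1.41 (1.06 to 1.82) and Irx1 of 1.23 (1.01 to 1.49). Tfap2b was depleted, at 0.315 (0.195 to 0.480), with 21 cells holding both genes. Bmp4, the distal ectodermal ligand, was at 0.473 (0.280 to 0.746) and Tfap2a at 0.767 (0.627 to 0.928). Otx2 at 1.09 and Foxa2 at 0.975 had intervals that included 1, although Otx2 in the epithelium group was at 0.842 (0.735 to 0.958). In the epithelium group the directions for Tfap2b and Bmp4 were the same after thinning. Tfap2b was there at 0.354 (0.143 to 0.729), from 7 cells holding both genes. Without thinning it was at 0.894 (0.717 to 1.10) in that group, an interval that included 1, and Bmp4 was at 0.697 (0.578 to 0.831). The thinned intervals of Irx1 and Tfap2a in that group, at 1.03 (0.798 to 1.32) and 0.822 (0.663 to 1.01), included 1. Without thinning Tfap2a was at 0.998 in Epcam-positive cells. Otx2 without thinning was at 1.23 (1.17 to 1.28) in Epcam-positive cells and 1.08 (1.02 to 1.14) in the epithelium group, so its direction there depended on thinning.

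The association was graded. Epcam-positive cells were divided by Vgll2 UMIs into 2886 cells with 0, 485 with 1, 410 with 2 to 3, 505 with 4 to 7 and 530 with 8 or more, at median depths of 12140, 13178, 13953, 14412 and 17292 UMIs. Fgf8 was 25.04, 57.5, 122, 201 and 251 CPM over these classes. Sox2 was 53.6, 74.6, 132, 132 and 164 CPM. Tfap2b went from 32.5 to 4.33 CPM, and in the epithelium group from 12.2 CPM (10.5 to 14.2) to 2.98 CPM (1.77 to 4.71). In the epithelium group Fgf8 went from 40.7 CPM (37.5 to 44.1) to 292 CPM (279 to 306) and Sox2 from 67.1 CPM (63.0 to 71.5) to 156 CPM (147 to 167), so neither trend was limited to cells with mesenchymal transcripts.

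**Figure D2:**
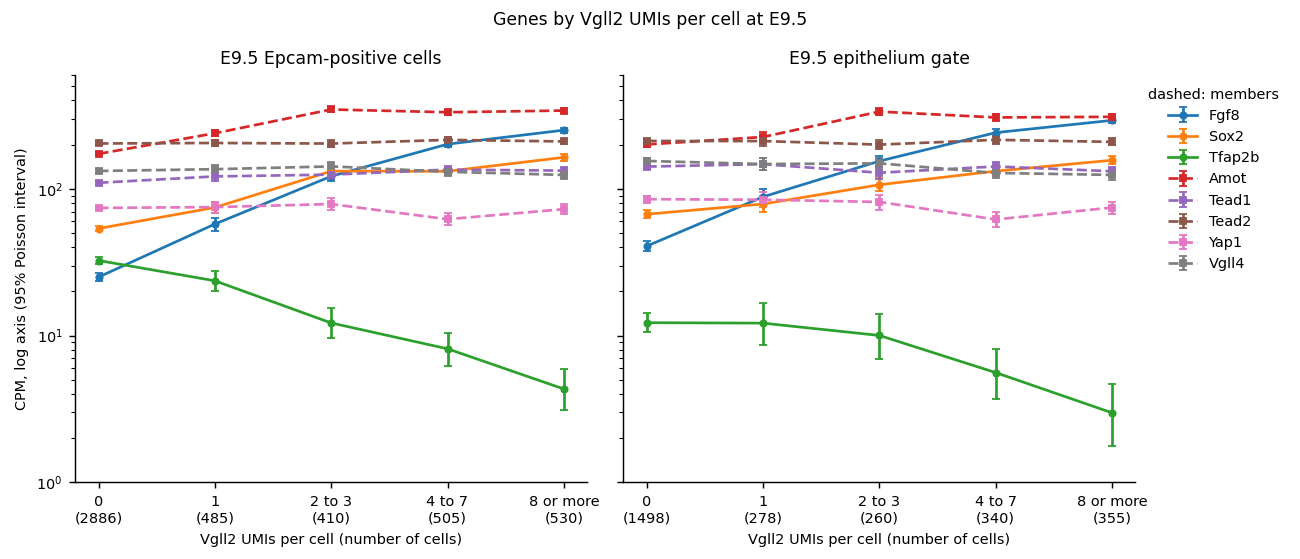
CPM of 8 genes (vertical log axis, lines and bars are values and 95% Poisson intervals) in E9.5 cells grouped by Vgll2 UMIs per cell, for Epcam-positive cells on the left and the epithelium group on the right. Fgf8 climbs from 25.04 to 251 CPM on the left, Tfap2b descends from 32.5 to 4.33 CPM, and Tead2 stays between 199.96 and 215.5 CPM over both panels.

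Tead2, which encodes a DNA-binding partner of VGLL proteins, stayed level across cells with few and many Vgll2 UMIs. From 0 to 8 or more Vgll2 UMIs, Tead2 went from 203 to 210 CPM, Vgll4 from 132 to 124 CPM, Yap1 from 74.1 to 72.7 CPM and Tead1 from 110 CPM (107 to 113) to 133 CPM (126 to 141) in Epcam-positive cells. Within the epithelium group Tead1 was 142 and 132 CPM at the ends. Thinned joint ratios in that group were 0.936 (0.828 to 1.05) for Tead1, 0.990 (0.897 to 1.09) for Tead2 and 0.963 (0.823 to 1.12) for Yap1. Of the 1233 epithelial cells with a Vgll2 UMI, 1201 also held a UMI of at least 1 Tead gene at full depth, which is 97.4%. After thinning the share was 65.9%, against 68.0% of cells without Vgll2.

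In the epithelium group, the CPM of Wwtr1, Tead4 and Vgll4 was lower in cells rich in Vgll2, but joint detection did not show this. Median depth there was 9395.5 UMIs at 0 Vgll2 UMIs and 16547 at 8 or more. Wwtr1 went from 20.1 CPM (17.9 to 22.6) at 0 Vgll2 UMIs to 10.4 CPM (8.02 to 13.3) at 8 or more, Tead4 from 9.92 CPM (8.37 to 11.7) to 4.97 CPM (3.35 to 7.09) and Vgll4 from 155 CPM (148 to 161) to 124 CPM (116 to 134). Their thinned joint ratios in that group had intervals that included 1, at 0.746 (0.492 to 1.08) for Wwtr1, 0.658 (0.351 to 1.12) for Tead4 and 0.954 (0.849 to 1.07) for Vgll4. Amot was higher in cells with more Vgll2. It went from 173 to 341 CPM over the Epcam-positive classes, reaching 347 CPM already at 2 to 3 UMIs, and from 200 CPM (193 to 208) to 309 CPM (295 to 324) in the epithelium group. The thinned joint ratio was 1.26 (1.17 to 1.36) in Epcam-positive cells and 1.18 (1.07 to 1.30) in epithelium. In endoderm it was 0.955 (0.757 to 1.18).

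Ranking genes by their ratio between Epcam-positive cells with 2 or more Vgll2 UMIs (559 cells after thinning) and those with none (3493) placed Fgf8 first of 3304 genes considered, at a log2 ratio of 2.34 with 5 CPM added. Has2, Tox3, Uchl1, Cxcl12, Sox2, Dusp6 and Npm3 were among the genes that followed, from 1.42 down to 0.97. Dusp6 is a feedback phosphatase of FGF signalling, and Has2 makes hyaluronan. At least 2-fold differences were seen for 0.242% of the genes in the direction of Vgll2 and for 0.666% against it. The lowest were Twist1, Vim, Prrx1, Ahnak and Prrx2, mostly mesenchymal genes.

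The epithelium group alone gave a similar order. Fgf8 was first at 2.09, and Elovl6 and Rhob took the places of Uchl1 and Cxcl12. There 0.178% of 3363 genes were at least 2-fold higher with Vgll2 and 1.04% lower. The lowest were the embryonic globins Hbb-y and Hba-x, then Ahnak, Pdlim1 and Cd59a. Hbb-y was found in 20.2% of cells with 2 or more Vgll2 UMIs and 20.4% of cells with none, but at 68.3 against 480 CPM. The source of blood transcripts in these cells was not tested. The split is by Vgll2 itself, so these rankings are descriptions.

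At E12.0, clusters were built as the study built its own but without the 10 genes or the pathway and target lists among the clustering genes, and were named only from marker genes. Of 13 clusters, 8 were named. The anterior group had 2969 cells, the dental group with the Shh-positive initiation knot 1152, the posterior group with tongue and salivary gland clusters 2037, and the periderm and suprabasal (P/S) group 458. The other 4739 cells, in 5 clusters, stayed unnamed, among them cluster 11, whose median was 1212 UMIs. Group sizes depended on the clustering settings. The dental group held 2930 cells at a clustering resolution of 0.6, 1384 at 1.2 and 1420 with 20 principal components. It held 1828 cells without regression of cell cycle, sex and lincRNA scores. The P/S group held 424 to 461 cells over all settings. Group levels below are those of the main clustering.

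Vgll2 was all but absent. The whole E12.0 library held 59 Vgll2 UMIs in 54 of 11355 cells, 0.757 CPM (0.576 to 0.977). There were 0 in 2969 anterior cells, where the floor of 3 counts is 0.141 CPM and the upper 95% Poisson limit 0.174 CPM. The UMIs were not spread evenly. Unnamed cluster 1, led by Fgf8 and Timp3, gave 19 UMIs at 1.64 CPM (0.989 to 2.57), and unnamed cluster 7 gave 7 UMIs at 1.79 CPM (0.721 to 3.696). The initiation knot cluster gave 13 UMIs at 2.82 CPM (1.5005 to 4.82), and the P/S cluster 9 UMIs at 2.90 CPM (1.33 to 5.50). Within P/S, 7 of these came from 5 of the 103 cells with at least 2 Acta2 and Tagln UMIs, the contractile cells, a level of 8.33 CPM (3.35 to 17.2), and 2 from the other 355 cells at 0.884 CPM (0.107 to 3.19). Doublets were called in 13.6% of those 103 cells and 7.89% of the others, and the part of this in the result was not tested.

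Among the named E12.0 groups, Vgll3 was highest in the anterior and P/S groups. It was 28.4 CPM (26.2 to 30.8) in the anterior group and 24.8 CPM (19.6 to 31.0) in P/S, with overlapping intervals. The posterior group held 5.44 CPM and the dental group 3.24 CPM. Among anterior clusters the one led by Gjb6 and Gjb2 was at 36.3 CPM and the one led by Col19a1 and Robo2 at 23.5 CPM, and contractile P/S cells were at 39.3 CPM (27.0 to 55.2) against 19.4 CPM (14.1 to 26.1) in other P/S cells. Salivary gland-like cells were lowest, at 2.09 CPM. Unnamed clusters also held Vgll3, with 21.1 CPM (18.5 to 23.9) in cluster 1 and 24.6 CPM (20.7 to 28.9) in cluster 5. The leading genes of cluster 1 include Timp3 and Prss23, which the paper used to map the diastema, a part of its dental cluster. The low dental value is thus that of the clusters named dental and initiation knot only.

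Tead2 and Amot were both lowest in the anterior group. Tead2 was 173 CPM in the dental group, 168 CPM in the posterior group, 133 CPM in P/S and 63.9 CPM (60.6 to 67.4) in the anterior group. Both clusters named anterior were below every other cluster, at 73.4 and 48.9 CPM, and the next lowest was 105 CPM. Unnamed cluster 4 was not low, at 128 CPM of Tead2 and 161 CPM of Amot. Its leading genes include Slc4a4, which the paper mapped in the anterior epithelium. Amot was 315 CPM in the posterior group, 199 CPM in P/S, 60.6 CPM in the dental group and 42.9 CPM in the anterior group. By cluster it was 52.5 CPM in the initiation knot, against 52.8 and 27.1 CPM in the clusters named anterior. Within the posterior group the tongue-like cluster, marked by Foxa1 and Foxa2, was at 968 CPM (924 to 1013), with an Amot UMI in 96.2% of its 266 cells. Other posterior cells were at 221 CPM and salivary gland-like cells at 215 CPM, and unnamed cluster 7, led by Fndc1 and Pax9, reached 315 CPM.

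Of the 9 genes tested between the highest and lowest of the 4 groups, Vgll3, Tead2 and Amot were called, 3 of 9 against 13.8% of 10124 genes. Their log2 ratios were 3.13 (2.60 to 3.73) for Vgll3, anterior against dental, 1.44 (1.33 to 1.54) for Tead2, dental against anterior, and 2.88 (2.77 to 2.98) for Amot, posterior against anterior. Unnamed clusters, such as cluster 1 with 21.1 CPM of Vgll3, were not part of these groups. The median log2 ratio with 5 CPM added was 0.66 over the members and 0.37 over all genes, and since highest and lowest are picked both are above 0 by construction. Vgll2 had too few cells to be tested.

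**Figure D3:**
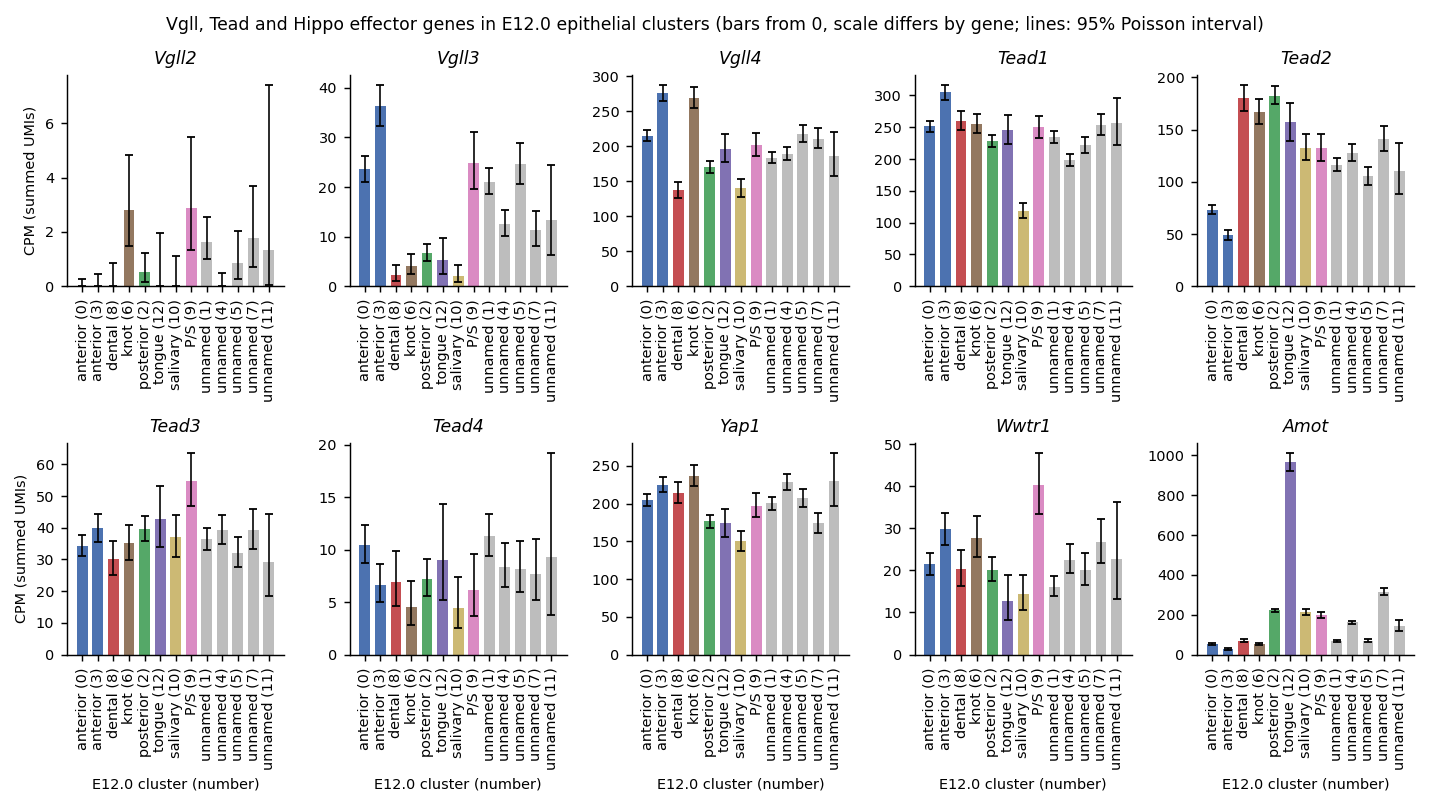
Levels of the 10 genes in 13 clusters of E12.0 epithelium, as CPM of summed UMIs (vertical axis from 0, scale set for each gene) with 95% Poisson intervals as lines. Amot stands at 968 CPM in the tongue-like cluster, Tead2 is lowest in both anterior-like clusters, Vgll3 is highest in anterior-like cluster 3 at 36.3 CPM, and Vgll2 does not exceed 3 CPM in any cluster.

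The remaining members tested were not called between these groups. Wwtr1 was 40.3 CPM (33.5 to 48.0) in P/S, 24.7 CPM in the anterior, 24.1 CPM in the dental and 17.9 CPM in the posterior group, a log2 ratio of 0.98 with 5 CPM added between the extremes. Tead3 was also highest in P/S at 54.8 CPM and lowest in the dental group at 32.7 CPM. Vgll4 ran from 239 CPM in the anterior group to 167 CPM in the posterior group, and Tead1 from 272 to 206 CPM in the same groups. Yap1 was 226 CPM in the dental and 170 CPM in the posterior group. Tead4 lay between 5.69 and 8.96 CPM. The initiation knot cluster held 269 CPM of Vgll4 (254 to 284) and the dental-like cluster 137 CPM (127 to 149). By cluster, Tead1 was 118 CPM (107 to 131) in salivary gland-like cells, against 198 to 305 CPM in the other 12 clusters.

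Among the targets, 5 of 13 tested were called between E12.0 groups, against 13.8% of all genes. Tgfb2 was 281 CPM in the dental and 2.92 CPM in the anterior group, and Dock5, a guanine exchange factor, was 33.9 and 1.70 CPM in the same order. Ccn1 was 168 CPM in the dental group and 41.9 CPM in P/S, Rbms3 was 89.0 CPM in the posterior group and 20.3 CPM in P/S, and Myof was 13.5 CPM posterior and 4.02 CPM dental. Tgfb2, Dock5 and Ccn1 were highest in the dental group, and Rbms3 and Myof in the posterior group. Tgfb2 was among the leading genes of the initiation knot cluster and Dock5 among those of the dental-like cluster. A link between targets and members was not tested. Of the 14 kinases and adaptors 1 was called, Wwc1, at 122 CPM in P/S and 49.5 CPM posterior. Of 10 tested junction genes 1 was called, Fat4, at 13.2 CPM dental and 2.90 CPM in P/S.

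Between the E12.0 and E9.5 epithelium, 1 member was far lower and 3 were higher at E12.0, among 10 tested over genes common to both lists. At E12.0 12.9% of 10187 genes were called higher and 5.01% lower. Vgll2 was 0.759 CPM at E12.0 and 221 CPM at E9.5, a ratio of 1 to 292 and a log2 ratio of -8.19 (-8.58 to -7.82). Thinned to 4100 UMIs at E12.0, 0.339% of cells held a Vgll2 UMI, and at the lower depth of 3100 UMIs 28.8% of E9.5 epithelial cells did.

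The other 3 called members were Yap1, at 203 against 79.2 CPM (log2 1.36, 1.30 to 1.42), Tead3, at 37.4 against 10.99 CPM (log2 1.77, 1.61 to 1.93), and Vgll3, at 17.1 against 3.66 CPM (log2 2.22, 1.95 to 2.50). Tead1 was 240 against 139 CPM, Vgll4 203 against 144 CPM and Wwtr1 22.2 against 15.6 CPM, each below 2-fold. Tead2 was lower, 121 against 211 CPM (log2 -0.80), as was Amot, 136 against 254 CPM (log2 -0.90). Amot lies on the X chromosome, and in cells with a Xist UMI and no Y-linked UMI its log2 ratio with 5 CPM added was -1.07. The E12.0 side also included the Foxa-positive tongue-like cluster, at 968 CPM of Amot. A Foxa1, Foxa2, Pax1 or Shh UMI excluded a cell from the E9.5 epithelium. The effect of this mismatch on the Amot ratio was not tested. Tead4 was 8.23 and 8.13 CPM, a log2 ratio of 0.02 (-0.19 to 0.23). The median with 5 CPM added was 0.45 over members and 0.15 over all genes tested.

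The leading TEAD transcript differed between the stages. Tead1 made up 59.0% of Tead UMIs in the E12.0 library and Tead2 29.8%, where Tead2 led with 57.1% in the E9.5 epithelium. Tead3 made up 9.21% at E12.0 against 2.98% in E9.5 epithelium. The summed Tead level was 405 CPM at E12.0 and 368 CPM at E9.5. Among E12.0 groups Tead1 made up 71.3% in the anterior, 56.4% in P/S, 54.9% in the dental and 49.0% in the posterior group, and Tead2 exceeded Tead1 only in salivary gland-like cells, at 45.4% against 40.5%.

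**Figure D4:**
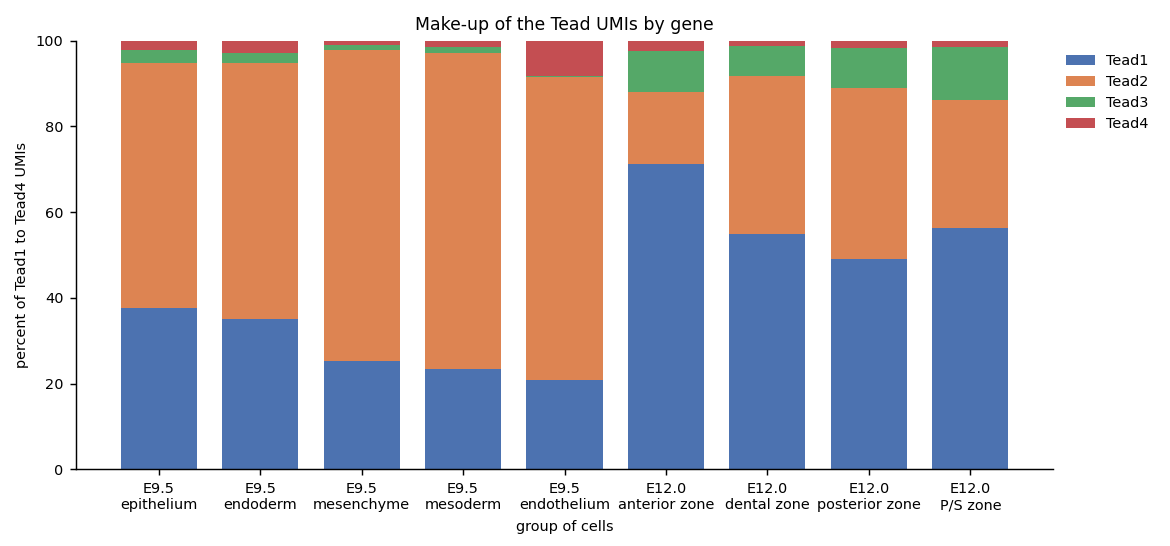
Share of Tead1, Tead2, Tead3 and Tead4 among all their UMIs (vertical axis, percent) in 5 groups of E9.5 cells and 4 of E12.0 cells. Tead2 is the largest share in all E9.5 groups, 57.1% in epithelium, and Tead1 in all E12.0 groups, 71.3% in the anterior group.

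Other pathway genes were also higher at E12.0, where 12.9% of all genes were called higher. Of the kinases and adaptors 4 of 14 were called higher, namely Lats1 (77.3 against 19.1 CPM), Mob1b (91.5 against 36.6 CPM), Taok1 (246 against 91.5 CPM) and Taok2 (48.3 against 21.0 CPM). Of the junction genes 6 of 9 were called higher: the angiomotin relative Amotl1 at 307 against 100.1 CPM, the phosphatase Ptpn14 at 125 against 23.1 CPM, Frmd6, the cadherins Fat1 and Dchs1, and Dlg5. Amotl2 was not among them. The median log2 ratios were 0.64 for the kinases and adaptors and 1.57 for the junction genes.

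Of 14 targets tested, against 12.9% of all genes higher and 5.01% lower, 7 were higher at E12.0, namely Ccn1 (111 against 28.003 CPM), Axl, Crim1 (138 against 20.5 CPM), Arhgef17, Rbms3, Myof and Nt5e, and 1, Nuak2, was lower (1.38 against 10.6 CPM). Ccn2 was 2.11 CPM at E12.0 and 6.92 CPM at E9.5. Axl and Nt5e encode a receptor kinase and an ectonucleotidase. The libraries differed in stage, dissociation, sorting and the software version named in their headers, and the cells compared were chosen by different rules. The part of each in these values was not tested. Median mitochondrial shares were 5.50% at E12.0 and 1.54% at E9.5, and with at most 5% allowed Vgll3 came to 0.93 with 5 CPM added and lost its call.

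**Figure D5:**
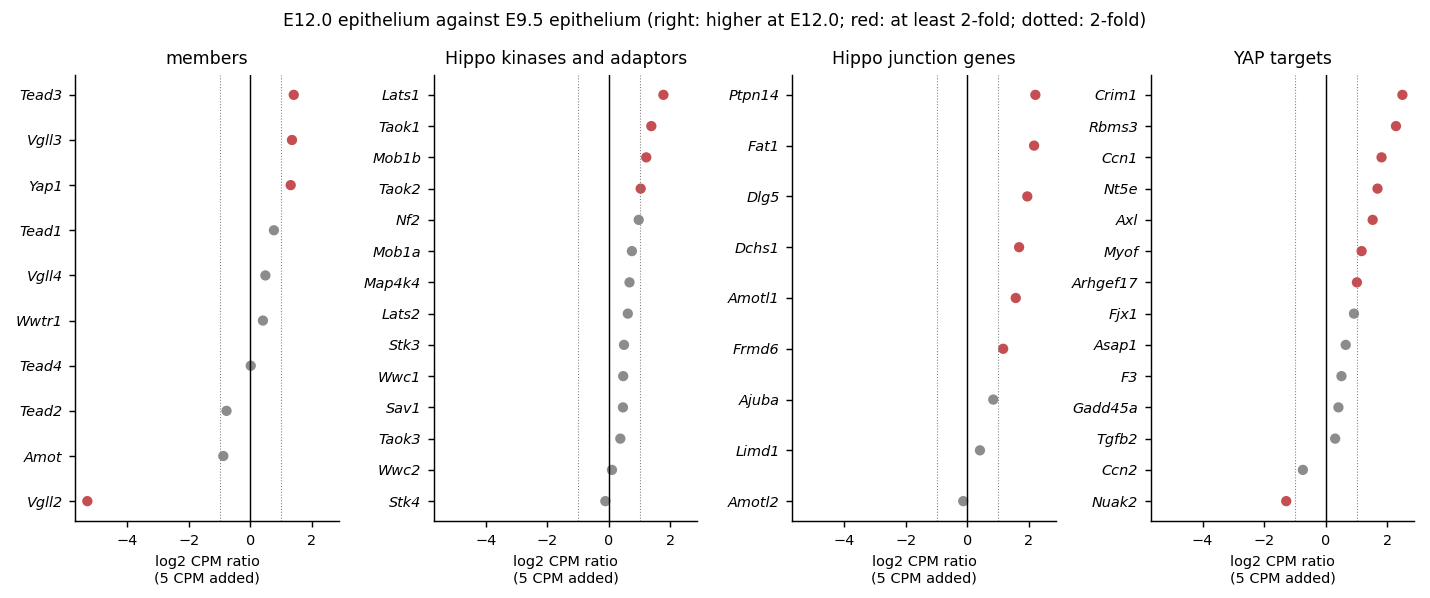
Log2 ratio of CPM with 5 CPM added (horizontal axis), E12.0 epithelium against E9.5 epithelium, for members, Hippo kinases and adaptors, Hippo junction genes and YAP targets that were tested. Points to the right are higher at E12.0 and red points pass 2-fold. Vgll2 lies at -5.30 apart from all others, and 6 of 9 junction genes pass 2-fold on the right.

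The genes whose levels most resembled each member over the 5 E9.5 groups and 13 E12.0 clusters were found among 8795 genes by Pearson's r of log2 CPM with 5 added, a description over 18 groups that share 2 libraries. For Vgll2 these were Car4 (r = 0.973), Otx2 (0.972) and Tal2 (0.952), of which Otx2 is a head ectoderm and brain factor. Outside the E9.5 epithelium and endoderm no group held more than 6.005 CPM of Vgll2, so its r rests mainly on those groups. The part that the difference between the 2 libraries has in the r of any member was not tested. For Vgll3 they were Lgals7 (0.911), Col8a1 and Col12a1. For Amot they were Wfdc2 (0.822), Aig1 and Foxa1 (0.797). Yap1 (Tulp4, 0.988), Tead3 (Cbx6, 0.988), Tead1 (Hltf, 0.971) and Vgll4 (Klhl8, 0.937) had close matches. Tead2 (Cuedc2, 0.853), Wwtr1 (Srgap1, 0.845) and Tead4 (Pcgf5, 0.806) had weaker ones.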

How the data were processed

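Single-cell 3' RNA libraries of mouse mandibular cells at E9.5 and E12.0 were read as deposited. Per the labels the authors counted UMIs per gene and cell with Cell Ranger 2.0.0 on GRCm38 (mm10), while the headers of the deposited count matrices name 3.1.0 (E12.0) and 6.1.2 (E9.5). The deposited values are raw UMI counts. Cells with 200 to 5500 genes and at most 10% mitochondrial UMIs were kept, as in the study. E9.5 cells were grouped by raw UMIs: epithelium had at least 1 Epcam UMI, fewer than 2 of Prrx1 and Twist1 and none of Cdh5, Pecam1, Foxa2, Foxa1, Pax1 and Shh, and endoderm had at least 2 of the last 4 genes. Mesenchyme had no Epcam and at least 2 UMIs of Prrx1 and Twist1, mesoderm at least 2 of Tcf21, Msc and Myf5, and endothelium at least 2 of Cdh5 and Pecam1. E12.0 cells were clustered with Seurat 5.3.0 and sctransform 0.4.2 in R 4.3.3 on 3000 variable features less the 28 that belonged to the lists reported here. A cluster was named only where at least 1 of its own markers was among its 10 leading genes, a condition set after the clusters were seen. Counts were summed, scaled to CPM and compared in Python 3.11.15 with numpy 2.4.6 and scipy 1.17.1. Thinning drew UMIs without replacement with seed 1 to 3100 per cell (E9.5) or 4100 (E12.0), leaving out shallower cells. Scrublet, run in scanpy 1.11.5, called 5.82% of E12.0 cells doublets and 0.290% to 6.52% of the E9.5 groups. Doublets were kept, and left out as an alternative. A second E12.0 row named Tead2 held 0 UMIs. The code was tested on simulated data. The genes named are the members, the pathway and target lists, and the 10 genes highest and 5 lowest with Vgll2, of which some are not reported here. The members and lists were chosen with earlier results of these data known.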

Additional observations from a re-analysis of the deposited data

How the results depend on the processing

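With 1 library per stage no value has a replicate error, and no paired analysis was possible because each stage is 1 library and the groups within it are cells of that library. Members called at least 2-fold went from 3 to 5 between epithelium and mesenchyme with 1 CPM added or a fold of 1.5. Between endoderm and epithelium the count went from 0 to 1 with cells weighted equally, in cells with a Y-linked and no Xist UMI, or with stricter gates, and to 2 at a fold of 1.5. Between mesoderm and mesenchyme it went from 1 to 0 in thinned cells or in cells with a Xist and no Y-linked UMI, to 2 with 1 CPM added and to 3 at a fold of 1.5. At a fold of 1.5 the E12.0 groups gave 5 in place of 3 and the stages 7 in place of 4. The log2 ratio of Vgll2 between epithelium and mesenchyme, 4.36 with 5 CPM added, was 4.06 with cells weighted equally, 4.09 thinned, 4.195 in Xist-positive cells, 4.69 in Y-positive cells and 4.99 with 1 CPM added. The joint ratio of Vgll2 with Sox2, 1.56, was 1.93 with at least 2 UMIs of each gene, 1.33 with at least 2 Epcam UMIs, 1.38 in the epithelium group and 1.40 in Xist-positive cells. That with Fgf8, 2.24, was 1.84 without thinning, 2.54 with at least 2 UMIs of each, 1.86 with at least 2 Epcam UMIs and 1.99 in the epithelium group. No called value changed direction under these alternatives. The cause of these movements was not tested.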
